A study of Homo sapiens with 25 samples.

Results

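The comparison described here sets cells sorted for low dye accumulation against cells that were not gated on the dye. The cells were hiF-T cells, a line derived from BJ human skin fibroblasts that the labels describe as fibroblast-like with an inducible hTERT gene, the telomerase catalytic subunit. All libraries of the comparison carried the genotype label WT and the treatment label none. Of the 25 bulk RNA-seq libraries of the series, 8 were chosen by their labels: 4 low dye libraries and 4 ungated libraries, numbered as biological replicates 1 to 4 in each group. The 12 libraries of the midlow, midhigh and high dye gates, 4 of each, share those replicate numbers and entered the same statistical model, and the other 5 libraries belong to a drug experiment not analysed here. The series text says that cells were sorted by proliferation status. The labels do not name the dye, do not tell whether slowly or quickly dividing cells hold less of it, give no share of cells per gate and do not say whether ungated cells passed through the sorter. By its name the ungated population also holds cells that a low dye gate would take, so it is a mixture that includes the sorted fraction and not its opposite.

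In dye dilution assays a stable label is divided between daughter cells, so that its level falls as cells divide. Cells entering S phase transcribe genes for origin licensing, DNA synthesis and deoxynucleotide supply under E2F transcription factors, which the retinoblastoma proteins hold in check. Genes of mitosis are read later in the cycle, and many carry a short element called CHR (cell cycle genes homology region) in their promoters. The p53 protein induces CDKN1A, which encodes the cyclin-dependent kinase inhibitor p21 and acts upstream of both gene groups. Fibroblasts that have left the cycle for good, as in senescence, are known for p21 expression, enlarged lysosomes and the secretion of proteases and signalling factors.

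The promoters of 6 genes that rose in low dye cells are shown because they hold, in the window from 250 bases before to 50 bases after the first listed start site, the letters most often described for S phase or for mitotic promoters. The sequences come from RefSeq, build GRCh38.p14, and run 5′ to 3′ along the strand of the gene. In the first 4 the capitals mark E2F letters (TTTCCCGC, TTTGGCGC or TTTCGCGC, on either strand), and in the last 2 they mark CHR letters (TTTGAA, on either strand). In MCM2 a pair of E2F matches on opposite strands overlap, and their capitals run together.
CDCA7, chr2:173354622-173354921, plus strand: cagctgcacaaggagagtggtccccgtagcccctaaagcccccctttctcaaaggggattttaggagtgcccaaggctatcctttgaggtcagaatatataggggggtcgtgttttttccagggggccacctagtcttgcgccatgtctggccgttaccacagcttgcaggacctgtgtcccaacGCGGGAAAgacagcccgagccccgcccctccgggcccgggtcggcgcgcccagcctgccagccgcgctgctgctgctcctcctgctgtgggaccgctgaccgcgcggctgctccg
E2F1, chr20:33686336-33686635, minus strand: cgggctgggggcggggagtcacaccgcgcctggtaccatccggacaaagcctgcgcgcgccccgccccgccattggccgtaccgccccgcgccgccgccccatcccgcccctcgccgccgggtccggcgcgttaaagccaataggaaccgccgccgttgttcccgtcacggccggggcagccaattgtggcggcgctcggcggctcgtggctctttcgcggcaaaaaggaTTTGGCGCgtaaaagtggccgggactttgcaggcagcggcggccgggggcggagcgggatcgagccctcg
MCM2, chr3:127598161-127598460, plus strand: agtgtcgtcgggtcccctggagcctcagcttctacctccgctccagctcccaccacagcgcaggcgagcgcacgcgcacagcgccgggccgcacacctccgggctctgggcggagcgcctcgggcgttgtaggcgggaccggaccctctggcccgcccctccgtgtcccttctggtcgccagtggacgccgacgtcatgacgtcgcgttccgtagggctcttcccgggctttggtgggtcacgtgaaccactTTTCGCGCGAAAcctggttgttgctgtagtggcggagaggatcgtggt
DTL, chr1:212035498-212035797, plus strand: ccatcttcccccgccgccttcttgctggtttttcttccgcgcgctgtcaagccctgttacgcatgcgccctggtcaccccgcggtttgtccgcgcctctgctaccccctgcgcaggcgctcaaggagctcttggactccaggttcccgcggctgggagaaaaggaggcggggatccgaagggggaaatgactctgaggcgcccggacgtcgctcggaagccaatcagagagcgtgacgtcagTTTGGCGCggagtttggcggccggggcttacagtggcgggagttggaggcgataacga
CDC20, chr1:43358731-43359030, plus strand: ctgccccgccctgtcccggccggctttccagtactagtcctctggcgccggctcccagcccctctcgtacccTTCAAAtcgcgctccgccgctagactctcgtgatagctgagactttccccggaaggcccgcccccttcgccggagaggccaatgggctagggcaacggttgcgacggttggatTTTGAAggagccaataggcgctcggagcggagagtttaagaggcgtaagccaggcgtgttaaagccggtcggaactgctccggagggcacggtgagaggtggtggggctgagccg
PRC1, chr15:90994486-90994785, minus strand: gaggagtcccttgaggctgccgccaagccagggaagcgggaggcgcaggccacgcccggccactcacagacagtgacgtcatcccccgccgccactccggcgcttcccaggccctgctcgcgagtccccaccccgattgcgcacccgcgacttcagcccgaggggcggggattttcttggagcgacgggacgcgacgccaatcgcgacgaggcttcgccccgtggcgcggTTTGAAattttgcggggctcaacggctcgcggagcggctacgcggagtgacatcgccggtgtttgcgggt

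The E2F letters stood in the promoters of 22 of the 51 origin licensing and DNA replication genes with a promoter in the table (43.1%), of 59 genes in that list. Among all 27305 promoters of the same length, 2.79% held them. That set was not limited to the genes tested here, so the shares come from unlike sets of genes. In mitosis promoters the E2F letters stood in 6 of 62 (9.68%). The CHR letters had the other distribution, with 43 of 62 mitosis promoters (69.4%) and 2 of 51 licensing and replication promoters (3.92%), against 15.4% of all promoters. The promoter of ORC1, one of the genes with the largest increases below, held none of the 3 E2F spellings searched. These are matches of letters and not measurements of binding.

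Gene counts per library summed to 16005953 to 18914812 in low dye and 15027581 to 18341196 in ungated cells. Mitochondrial genes took 2.19% to 2.97% of gene counts in low dye and 2.47% to 2.91% in ungated cells, and reads outside annotated genes made up 6.07% to 7.28% in low dye and 5.31% to 6.44% in ungated cells. Several fibroblast markers were abundant in both groups, with COL1A1 at a mean of 2591 CPM (counts per 1000000 gene counts) in low dye and 3256 CPM in ungated cells and VIM at 2489 CPM in low dye and 2359.7 CPM in ungated cells. THY1, another fibroblast marker, was near absent, at 0.322 CPM in low dye and 0.586 CPM in ungated cells. The fibroblast markers LUM and DCN were also low, at 1.17 and 2.77 CPM in low dye and 2.96 and 8.34 CPM in ungated cells. At this depth 3 counts in a library corresponded to 0.159 to 0.200 CPM.

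Genes of DNA replication were higher and genes of the p53 response, the extracellular matrix and the lysosome were lower in low dye than in ungated cells. Of 14592 genes tested, 1575 (10.8%) passed an adjusted p of 0.05 in edgeR's quasi-likelihood test with the replicate number as a block, 524 of them higher (3.59%) and 1051 lower (7.2%). The higher genes moved little: 6 rose at least 2-fold, against 169 that fell at least 2-fold. The median difference, in log2 units of low dye minus ungated, was -0.0059 over all genes. Differences below are log2 differences, low dye minus ungated, each with its SE. All 4 low dye libraries lay above all 4 ungated libraries for 614 genes (4.21%) and below them for 549 (3.76%).

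The number of genes called rested on the pairing of replicate numbers. Without the block 11 genes passed, all of them lower in low dye, and none of the 102 genes called among those taken by the rule for named genes was among them. Same-numbered libraries deviated together from their group means, with correlations of 0.149 to 0.578 in all 40 pairs of same-numbered libraries. The pairs with ungated replicate 3 averaged 0.251, against 0.444 in the 36 pairs without it. The lowest of the 40, at 0.149, was ungated replicate 3 with low dye replicate 3, a pair of this comparison. Low dye replicate 3 correlated more closely with ungated replicate 4, at 0.257. Without ungated replicate 3, 899 of 14857 genes (6.05%) passed, 200 higher (1.35%) and 699 lower (4.7%). Both with and without that library 791 genes were called, each in the same direction. Without low dye replicate 3 the count was 422, the lowest for any single library, and without ungated replicate 2 it was 1032. The ungated libraries differed from the mean of the 4 gates at 0 genes (0%) in edgeR and in DESeq2, with 972 genes at an unadjusted edgeR p under 0.05.

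**Figure D1:**
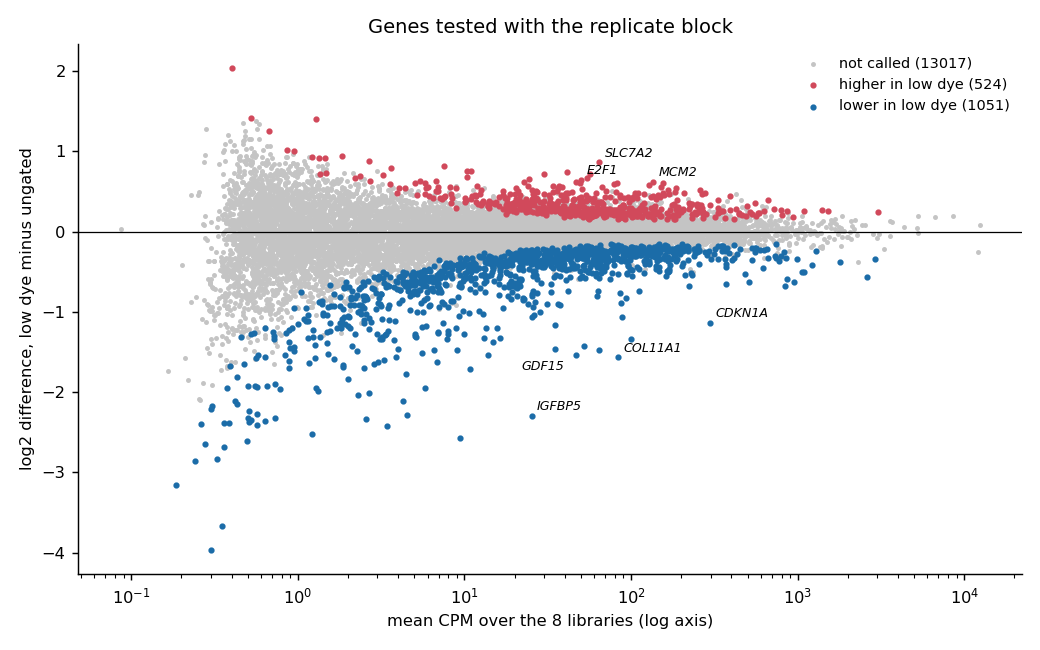
Log2 difference, low dye minus ungated, against mean CPM over the 8 libraries on a log axis, 1 point for each of 14592 genes, with genes past the adjusted p of 0.05 in red (524 higher) and blue (1051 lower). Above 10 CPM the genes that rose lie within 1 unit of 0, whereas those that fell reach further, among them IGFBP5 at -2.29.

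Origin licensing and DNA replication made up the list with the most genes higher in low dye cells. Of its 59 members, all tested, 32 rose (54.2%, against 3.59% of all genes) and 0 fell. The low dye libraries lay above all ungated libraries for 39 of the 59, against 4.21% of all genes. The median difference of the list was 0.39. ORC1 encodes the largest subunit of the origin recognition complex, which marks where replication may begin. It had 34.5, 33.8, 42.4 and 37.4 CPM in low dye replicates 1 to 4, against 21.4, 25.1, 18.1 and 26.1 CPM in ungated replicates 1 to 4. The groups did not overlap, and ORC1 rose by 0.72 ± 0.14 (SE) on the log2 scale (edgeR adjusted p = 0.00265). MCM2 and MCM5 are subunits of the helicase loaded at licensed origins. MCM2 measured 157, 157, 168 and 168 CPM in low dye, against 100.4, 128, 81.9 and 121 CPM in ungated cells. Again every low dye library was above every ungated one, with ungated replicate 3 lowest, and the difference was 0.62 ± 0.15 (edgeR adjusted p = 0.0107). MCM5 followed with 0.61 ± 0.15 (edgeR adjusted p = 0.0126) and no overlap. DTL, whose protein directs the licensing factor CDT1 to destruction once replication starts, measured 93.5, 86.3, 122 and 96.4 CPM in low dye, against 72.1, 58.9, 57.5 and 75.6 CPM in ungated cells. Its groups did not overlap and it rose by 0.60 ± 0.15 (edgeR adjusted p = 0.0153). TIPIN, a fork protection factor, rose by 0.50 ± 0.091, and POLE, the catalytic subunit of DNA polymerase epsilon, by 0.49 ± 0.10. Without ungated replicate 3 the list kept a median of 0.39, with 15 members higher and 0 lower. The number called higher was 4 without low dye replicate 3, 14 without ungated replicate 2, 18 without ungated replicate 4 and 19 without low dye replicate 1. These are bulk libraries, so that more cells in S phase and more RNA per such cell cannot be told apart.

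**Figure D2:**
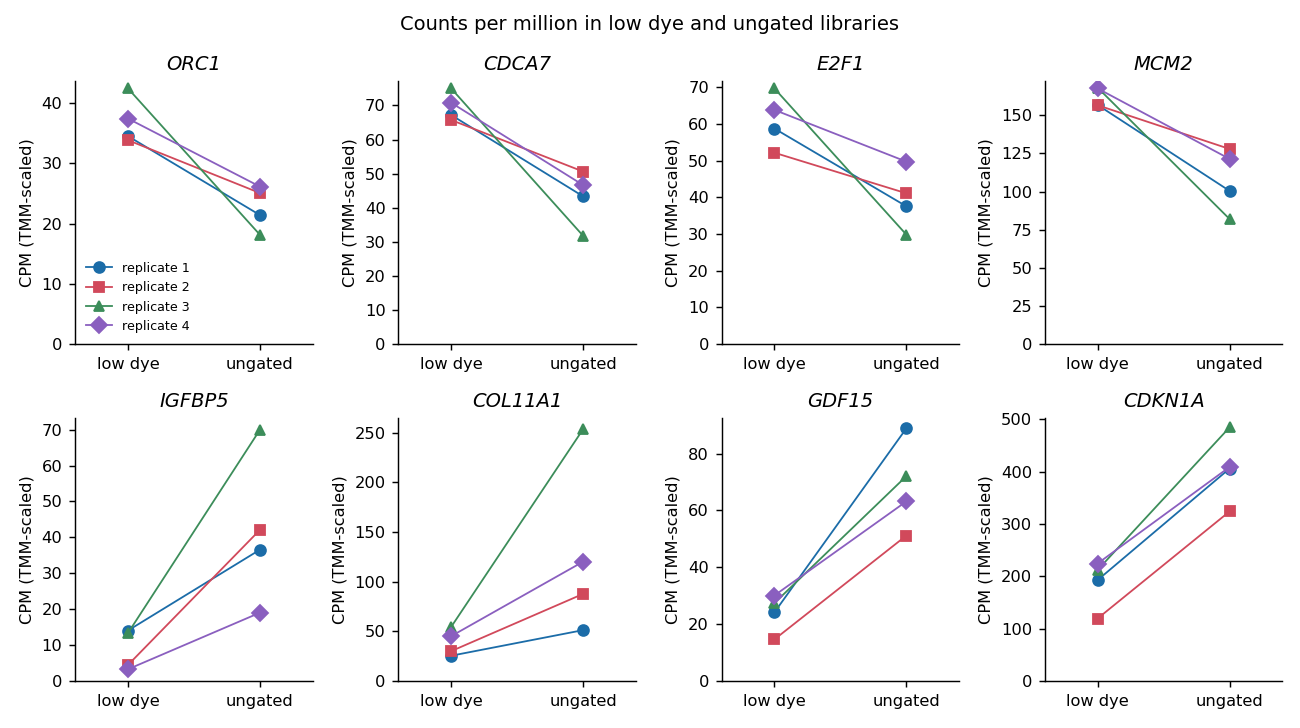
TMM-scaled CPM of 8 genes in low dye (left) and ungated (right) libraries, with a line joining libraries that carry the same replicate number and every axis starting at 0. In the upper row each pair falls toward ungated, and in the lower row each pair rises, for CDKN1A to between 324 and 485 CPM in ungated cells.

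Replication fork repair followed the same direction, with 11 of 28 tested members higher (39.3%, against 3.59% of all genes), 0 lower and a median of 0.34. MSH6, a mismatch recognition subunit, had 149.9, 163, 177 and 149.9 CPM in low dye, against 119, 134, 110.3 and 119.7 CPM in ungated cells. Its groups did not overlap (log2 difference 0.41 ± 0.09, edgeR adjusted p = 0.00722). CHEK1, the checkpoint kinase that protects stalled forks, rose by 0.39 ± 0.10, the Fanconi core gene FANCA by 0.44 ± 0.11 and the recombination gene XRCC3 by 0.41 ± 0.11. The number higher was 0 without low dye replicate 3, 3 without ungated replicate 2 and 6 without low dye replicate 1 or ungated replicate 4. Without ungated replicate 3, 5 members were higher and XRCC3 was not called (edgeR adjusted p = 0.0653).

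Among 20 genes of the E2F and retinoblastoma family 3 rose (15%, against 3.59% of all genes) and 0 fell. The number higher was 0 without low dye replicate 3, 6 without ungated replicate 1 and 8 without low dye replicate 2. E2F1, the activator that drives S phase genes, had 58.7, 52.1, 69.7 and 63.8 CPM in low dye, against 37.5, 41.1, 29.8 and 49.7 CPM in ungated cells. No low dye library reached down to the ungated range, and E2F1 rose by 0.65 ± 0.15 (edgeR adjusted p = 0.00857). E2F2, a second activator, rose by 0.82 ± 0.22, with 7.58, 7.88, 13.1 and 9.92 CPM in low dye, against 5.67, 5.66, 3.59 and 6.7 CPM in ungated cells. Its call was lost without ungated replicate 3 (edgeR adjusted p = 0.0848). RBBP4, a histone chaperone in several repressor complexes, rose by 0.23 ± 0.058, and RB1 itself differed by 0.22 ± 0.071 without passing the test (edgeR adjusted p = 0.0533).

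Cyclin, kinase and mitosis genes were called in small numbers, but the shares that rose were above that of all genes. Of 20 cyclin and kinase genes 3 rose (15%, against 3.59% of all genes) and 0 fell. Those that rose were SKP2, which targets the inhibitor p27 for degradation, PKMYT1, an inhibitory kinase of CDK1, and CDC25A, the opposing phosphatase. Their differences were 0.39, 0.57 and 0.55, and all 3 calls were lost without ungated replicate 3 or without low dye replicate 3, whereas 6 rose without low dye replicate 2. CCNB1, the mitotic cyclin B1, had 212, 237, 287 and 257 CPM in low dye, against 172, 190.3, 175 and 216 CPM in ungated cells, and its difference of 0.41 ± 0.14 missed the threshold (edgeR adjusted p = 0.0593). Of 76 mitosis genes 5 rose (6.58%, against 3.59% of all genes) and 0 fell, although 68 had a positive difference and the median was 0.23. CDC20, an activator of the anaphase-promoting complex, measured 209, 195, 222 and 225 CPM in low dye, against 152, 165, 119.7 and 177 CPM in ungated cells. The ranges did not overlap and CDC20 rose by 0.50 ± 0.15 (edgeR adjusted p = 0.035). PRC1, which bundles microtubules at the spindle midzone, rose by 0.51 ± 0.15, the kinesin KIF20A by 0.55 ± 0.17, PIMREG by 0.57 ± 0.16 and the spindle protein gene DLGAP5 by 0.45 ± 0.14. None of the 76 was called in edgeR without ungated replicate 3, where the median was 0.25. None was called without ungated replicate 2 or low dye replicate 3 either, 1 without low dye replicate 1 or ungated replicate 4, and 9 without low dye replicate 2. MKI67, the common proliferation marker, had 620.3, 619, 688 and 775 CPM in low dye, against 511, 508, 500.4 and 673 CPM in ungated cells. Its groups overlapped and its difference was 0.31 ± 0.15 (edgeR adjusted p = 0.182). TOP2A, a topoisomerase of G2 and mitosis, had the opposite sign at -0.23 ± 0.12 and did not pass (edgeR adjusted p = 0.223).

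Ribosome biogenesis and nucleotide supply contributed further increases of small size. All 38 tested members of the MYC and ribosome biogenesis list had positive differences and 12 rose (31.6%, against 3.59% of all genes), with a median of 0.16. NCL, the nucleolar protein nucleolin, measured 1287, 1526, 1539 and 1789 CPM in low dye, against 1163, 1290.2, 1143 and 1474 CPM in ungated cells. The groups overlapped, yet within each replicate number the low dye library was higher, and the difference was 0.27 ± 0.057 (edgeR adjusted p = 0.00425). DKC1, the pseudouridine synthase dyskerin, rose by 0.31 ± 0.069, UTP20 by 0.26 ± 0.058 and NOP58 by 0.28 ± 0.063, the last a component of box C/D ribonucleoproteins. MYC itself had a difference of 0.068 ± 0.058 (edgeR adjusted p = 0.494). Of 24 nucleotide supply genes 6 rose (25%, against 3.59% of all genes) and 1 fell (4.17%, against 7.2%). SHMT1 and MTHFD1 of one-carbon metabolism rose by 0.47 and 0.22, and PPAT, which begins purine synthesis, by 0.24. The others that rose were TK1, thymidine kinase, by 0.45, DTYMK by 0.36 and ATIC by 0.15. The member that fell was RRM2B, the ribonucleotide reductase subunit induced by p53, with a difference of -0.74 ± 0.16 (edgeR adjusted p = 0.00545). Leaving out single libraries reduced the 6 that rose to 2 (low dye replicate 1, ungated replicate 1 or ungated replicate 3), 1 (ungated replicate 2 or 4) or 0 (low dye replicate 3), and the 12 of ribosome biogenesis to 1 (low dye replicate 3) or 7 (ungated replicate 3).

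Among the other large increases were SLC7A2, a transporter of cationic amino acids, CDCA7, a partner of the remodeller HELLS, and CBX2, a Polycomb subunit that binds methylated histone H3. SLC7A2 had 58.3, 56.2, 125 and 97.7 CPM in low dye, against 41.4, 35.3, 38.6 and 64 CPM in ungated cells. Low dye replicates 3 and 4 were high, and low dye replicates 1 and 2 lay below ungated replicate 4, so the groups overlapped although each pair pointed up (log2 difference 0.87 ± 0.15, edgeR adjusted p = 0.00119). CDCA7 had 67.2, 65.7, 75 and 70.8 CPM in low dye, against 43.3, 50.6, 31.7 and 46.6 CPM in ungated cells. Its groups were separate and it rose by 0.71 ± 0.14 (edgeR adjusted p = 0.00281). CBX2 rose by 0.75 ± 0.19, the transcription factor TFAP4 by 0.75 ± 0.12, the deubiquitinase USP37 by 0.65 ± 0.10, PAQR4 by 0.68 ± 0.16 and SAPCD2 by 0.62 ± 0.15.

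RNA of p53 target genes was lower in low dye cells: of 37 tested targets 20 fell (54.1%, against 7.2% of all genes) and 0 rose. The median was -0.37. For 16 of the 37 the low dye libraries lay below all ungated libraries, against 3.76% of all genes. CDKN1A (GRCh38 chr6:36676460-36687339) had 193, 119, 212 and 224 CPM in low dye, against 406, 324, 485 and 409 CPM in ungated cells. The highest low dye library was under the lowest ungated one, and the log2 difference was -1.14 ± 0.15 (edgeR adjusted p = 1.02e-04). GDF15 encodes a secreted stress cytokine of the TGF-beta superfamily. It had 24.1, 14.6, 27.4 and 30.1 CPM in low dye, against 88.9, 51.2, 72.1 and 63.2 CPM in ungated cells, again without overlap (log2 difference -1.54 ± 0.23, edgeR adjusted p = 3.31e-04). TP53INP1, a p53-induced stress protein, had 9.02, 5.44, 7.93 and 7.23 CPM in low dye, against 22.3, 14.1, 26.3 and 13.1 CPM in ungated cells. No value was shared between the ranges and the difference was -1.32 ± 0.15 (edgeR adjusted p = 5.65e-05). ZMAT3, an RNA-binding p53 target, fell with a difference of -0.82 ± 0.11. Without ungated replicate 3, 19 of 37 fell and the median was -0.34. Without low dye replicate 3, 9 fell, the lowest number for any single library. In the list of 8 cyclin-dependent kinase inhibitor genes, which includes CDKN1A, CDKN3, a phosphatase that acts on cyclin-dependent kinases, rose by 0.48 ± 0.15 (edgeR adjusted p = 0.046), a call lost without ungated replicate 3 (edgeR adjusted p = 0.0644). CDKN2B and CDKN2A, which encode p15 and p16, had differences of -0.49 ± 0.17 and -0.23 ± 0.091 and did not pass (edgeR adjusted p = 0.062 and 0.11).

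Collagens and other matrix genes fell: 23 of 48 tested members were lower (47.9%, against 7.2% of all genes), and the median was -0.28. In that list 1 gene, NID1, a basement membrane protein, was higher by 0.28 ± 0.067 (2.08%, against 3.59% of all genes). COL11A1 (GRCh38 chr1:102876467-103108872), a minor fibrillar collagen, had 25.4, 29.96, 54.4 and 45.1 CPM in low dye, against 51.2, 87.7, 254 and 120.2 CPM in ungated cells. Ungated replicate 3 was far above the rest and ungated replicate 1 lay below low dye replicate 3, so the groups overlapped, while each pair pointed down (log2 difference -1.57 ± 0.16, edgeR adjusted p = 8.11e-06). COL3A1, the fibrillar collagen of stretchable tissue, had 14.3, 26.5, 10.4 and 22 CPM in low dye, against 20.8, 65, 65.3 and 53.3 CPM in ungated cells, with a difference of -1.47 ± 0.21. Ungated replicate 1 lay within the low dye range there. COL1A2, a chain of type I collagen, had 2679, 2335, 1620.5 and 1807 CPM in low dye, against 3185, 3224, 3434 and 2522 CPM in ungated cells. Its difference was smaller at -0.57 ± 0.095 (edgeR adjusted p = 7.92e-04). THBS2, a matricellular thrombospondin, differed by -0.53 ± 0.072 and LAMA4, a laminin chain, by -1.04 ± 0.15. Without low dye replicate 3, 15 members fell. Without ungated replicate 3, 25 members fell and the median was -0.28. Of the 10 fibroblast markers, which include COL3A1 and COL1A2 but not COL11A1, 7 fell (70%, against 7.2% of all genes). Without low dye replicate 3, 2 of these markers fell. Their summed level was 8435 to 10614 CPM in low dye and 10091 to 11476 CPM in ungated cells.

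Secreted factors and proteases held the largest decrease. IGFBP5 (GRCh38 chr2:216672105-216695525), which binds insulin-like growth factors, had 14, 4.43, 13.3 and 3.25 CPM in low dye, against 36.6, 42.1, 70.0 and 19 CPM in ungated cells. The groups did not overlap, ungated replicate 3 was highest, and the difference of -2.29 ± 0.18 was the largest decrease among the genes eligible to be named (edgeR adjusted p = 4.03e-07). PAPPA, the protease that cleaves IGF-binding proteins, had 51.8, 44.2, 57.3 and 68.3 CPM in low dye, against 140.4, 104, 197 and 132 CPM in ungated cells. Its ranges were separate, with a difference of -1.33 ± 0.18 (edgeR adjusted p = 1.27e-04). SPP1, the secreted phosphoprotein osteopontin, had 42.1, 20.7, 42.7 and 26.1 CPM in low dye, against 163, 74.3, 89.3 and 51.4 CPM in ungated cells. Every low dye value was below every ungated value and the difference was -1.48 ± 0.20 (edgeR adjusted p = 1.23e-04). In the whole list of 39 tested genes 12 fell (30.8%, against 7.2% of all genes) and 2 rose (5.13%, against 3.59%), with a median of -0.33. The 2 were the cytokine IL11 by 0.23 and the chemokine CXCL12 by 0.35. Without ungated replicate 3, 15 fell and 0 rose, with a median of -0.23.

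The other large decreases were less even across libraries. CPA4, a carboxypeptidase, had 16, 17.2, 20.6 and 45.8 CPM in low dye, against 19.5, 40.3, 187 and 73.3 CPM in ungated cells. Ungated replicate 3 was the highest by far and low dye replicate 4 exceeded 2 ungated libraries. The difference was -1.42 ± 0.27 with all libraries and -0.98 without ungated replicate 3 (edgeR adjusted p = 0.00258 and 0.00599). RGS5, a regulator of G protein signalling, was similar at -1.37 and -1.003. KRT34, a hair keratin, differed by -1.71 ± 0.20 and SULF1, which removes sulphate groups from heparan sulphate, by -1.53 ± 0.23. SULF1 had 1.75, 0.865, 18.2 and 10.1 CPM in low dye, against 7.33, 8.6, 38.2 and 25.4 CPM in ungated cells. Its replicates 3 and 4 were the highest in both groups, the groups overlapped, and each pair was lower in low dye. GASK1B, the last of the 12 largest decreases by rule that is not described elsewhere, differed by -1.33 ± 0.24.

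**Figure D3:**
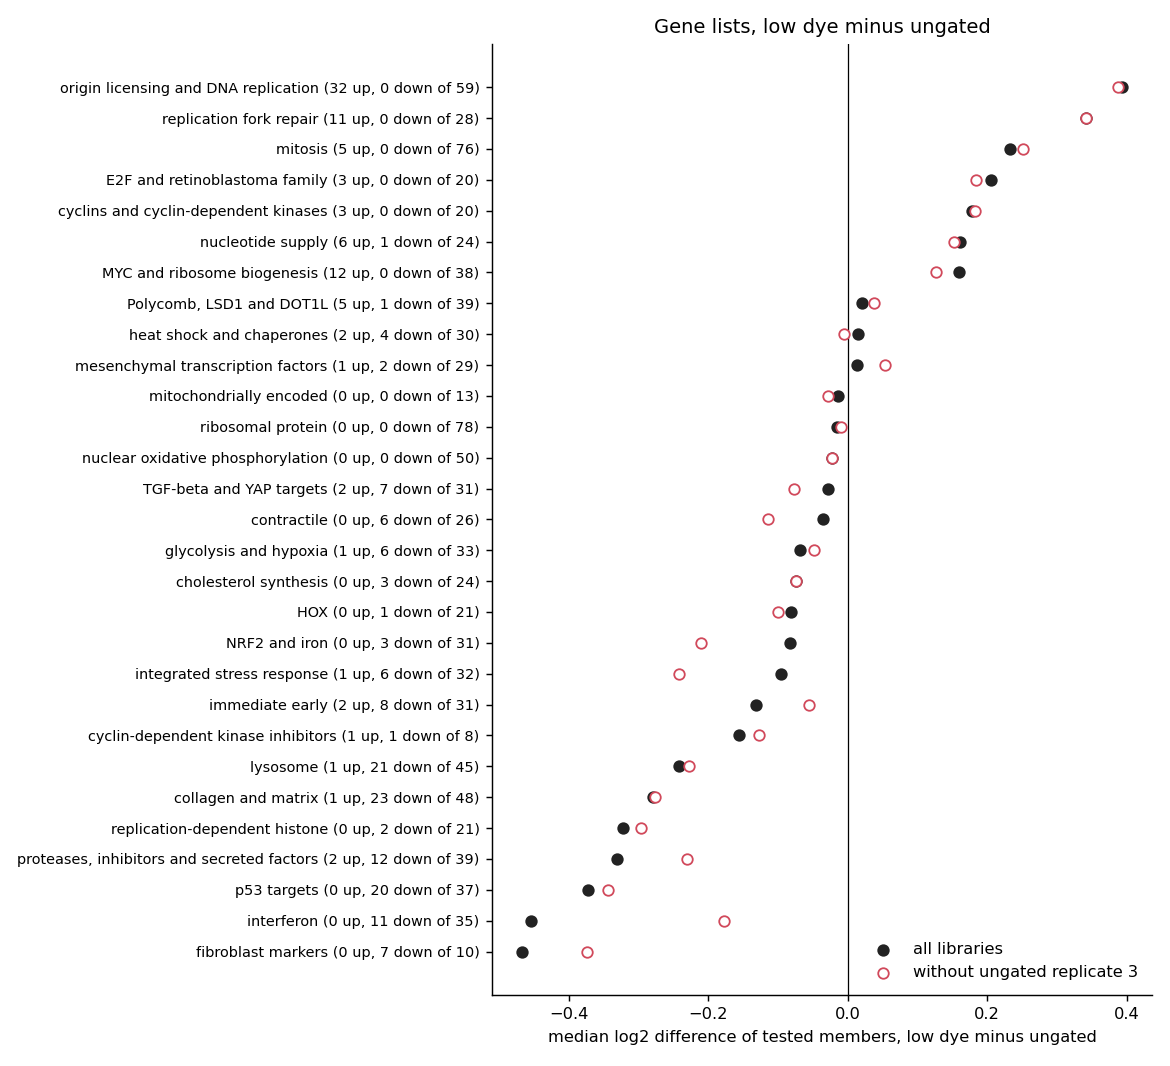
Median log2 difference, low dye minus ungated, of the tested members of each gene list, with all libraries (filled points) and without ungated replicate 3 (open points); the labels give members called with all libraries. Replication lists lie furthest right at 0.39 and 0.34, and the interferon list lies at -0.45 with all libraries and at -0.18 without ungated replicate 3.

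The contractile and TGF-beta lists had medians near that of all genes but contained genes that fell. Of 26 contractile genes 6 fell (23.1%, against 7.2% of all genes) and 0 rose (median -0.036). Of 31 TGF-beta and YAP targets 7 fell (22.6%, against 7.2%) and 2 rose (6.45%, against 3.59% of all genes), with a median of -0.028. The 2 that rose were TEAD4, a DNA-binding partner of YAP, by 0.36 and the receptor kinase AXL by 0.26. Neither was called without ungated replicate 3 (edgeR adjusted p = 0.115 and 0.126), where the medians of the contractile and TGF-beta lists were -0.11 and -0.077. Without low dye replicate 3, 3 TGF-beta and YAP targets fell. ACTA2, smooth muscle actin, had 5.57, 5.95, 45 and 37.7 CPM in low dye, against 8.18, 13.5, 51.1 and 64.1 CPM in ungated cells. Replicates 3 and 4 were several times higher than replicates 1 and 2 in both groups, and each pair pointed down (log2 difference -0.64 ± 0.13, edgeR adjusted p = 0.00309). MYLK, which phosphorylates myosin light chain, had 42.1, 43.2, 54.6 and 53.1 CPM in low dye, against 63.1, 66, 85.5 and 61.7 CPM in ungated cells, with no overlap and a difference of -0.51 ± 0.084. MYL9 differed by -0.40 ± 0.083 and TPM2, a tropomyosin, by -0.31 ± 0.068. ITGA11, a collagen-binding integrin subunit, differed by -1.20 ± 0.20 without overlap, the ligand TGFB2 by -1.25 ± 0.24, the secreted TGFBI by -0.51 ± 0.10 and the latent TGF-beta binding protein LTBP1 by -0.33 ± 0.079.

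Lysosomal genes fell in 21 of 45 cases (46.7%, against 7.2% of all genes) and had a median of -0.24. In that list 1 gene, GUSB, beta-glucuronidase, rose by 0.39 ± 0.095 (2.22%, against 3.59% of all genes). GPNMB, a lysosomal membrane glycoprotein, had 2.32, 1.22, 1.6 and 1.35 CPM in low dye, against 11.3, 7.53, 5.31 and 3.79 CPM in ungated cells. Its groups did not overlap and the difference was -2.11 ± 0.27 (edgeR adjusted p = 8.10e-05). PSAP, the precursor of the saposins, had 508, 447, 463 and 435 CPM in low dye, against 664, 567, 637 and 519 CPM in ungated cells, also without overlap, and a smaller difference of -0.36 ± 0.069 (edgeR adjusted p = 0.00258). The protease CTSB differed by -0.25 ± 0.053. MITF, a transcription factor of lysosomal genes and also a melanocyte marker, differed by -1.16 ± 0.24 at 1.06, 0.56, 1.79 and 1.16 CPM in low dye, against 1.26, 1.44, 5.45 and 2.55 CPM in ungated cells. Without ungated replicate 3, 15 lysosomal genes fell and 1 rose, and 13 fell without low dye replicate 1 and 5 without low dye replicate 3.

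The stress lists differed in the share that fell, and their level differed between replicate numbers. Of 32 integrated stress response genes 6 fell (18.8%, against 7.2% of all genes), with a median of -0.10. In that list 1 gene, the arginine transporter gene SLC7A1, rose by 0.21 (3.12%, against 3.59% of all genes). Of 31 NRF2 and iron genes 3 fell (9.68%, near the share of all genes) and 0 rose, with a median of -0.083. SLC7A1 was not called without ungated replicate 3 (edgeR adjusted p = 0.161). The number of stress response genes that fell was 2 without low dye replicate 3 and 3 without ungated replicate 1. Without ungated replicate 3 the counts were 10 and 6 lower, with medians of -0.24 and -0.21. The mean log2 CPM of the stress response list was 5.55, 4.90, 5.27 and 5.11 in low dye, against 6.07, 5.23, 5.27 and 5.31 in ungated cells, with replicate 1 highest in both groups. ATF3, a stress-induced transcription factor that is also counted among the immediate early genes, fell with a log2 difference of -1.28 ± 0.20. The p53 and ATF4 target SESN2 fell with -0.80 ± 0.16, the mTOR inhibitor DDIT4 with -1.03 ± 0.26 and the glycyl-tRNA synthetase GARS1 with -0.27 ± 0.063. DDIT4 was low, with 1.69, 1.07, 0.64 and 0.184 CPM in low dye, against 4.52, 1.44, 1.13 and 0.652 CPM in ungated cells. Replicate 1 was highest in both groups, and low dye replicate 4 lay near the floor of 3 counts. FTL, ferritin light chain, had 969, 689, 964 and 873 CPM in low dye, against 1536, 1161, 1179.5 and 1076 CPM in ungated cells, without overlap (log2 difference -0.50 ± 0.12, edgeR adjusted p = 0.01). ME1, the cytosolic malic enzyme, differed by -0.36 ± 0.095. AKR1C1, a steroid-metabolising reductase, had 4.82, 0.865, 0.96 and 0.674 CPM in low dye, against 18.7, 2.73, 0.996 and 1.36 CPM in ungated cells, so that replicate 1 carried most of its counts. Its difference of -1.56 ± 0.34 is uncertain because near-identical AKR1C genes share reads. SQSTM1, an autophagy receptor, did not pass with all libraries (-0.47 ± 0.16, edgeR adjusted p = 0.0634) and passed without ungated replicate 3 (-0.64, edgeR adjusted p = 0.00864).

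Part of the interferon-responsive genes fell, and the median of that list depended on ungated replicate 3. With all libraries 11 of 35 fell (31.4%, against 7.2% of all genes), 0 rose and the median was -0.45. Without that library 7 fell, 1 rose (OAS3, 0.65) and the median was -0.18, and without low dye replicate 3, 4 fell. The mean log2 CPM of the list was 2.69, 3.13, 2.64 and 2.66 in low dye, against 2.76, 3.35, 4.07 and 2.88 in ungated cells, where replicate 3 stood above all others. ISG15, a ubiquitin-like modifier, had 6.01, 10.4, 9.4 and 6.55 CPM in low dye, against 8.7, 16, 36.4 and 9.95 CPM in ungated cells, with a difference of -1.03 ± 0.21 that became -0.59 without replicate 3 (edgeR adjusted p = 0.00335 and 0.00163). SAMD9L remained called at -0.50, as did the membrane protein IFITM3 at -0.31.

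**Figure D4:**
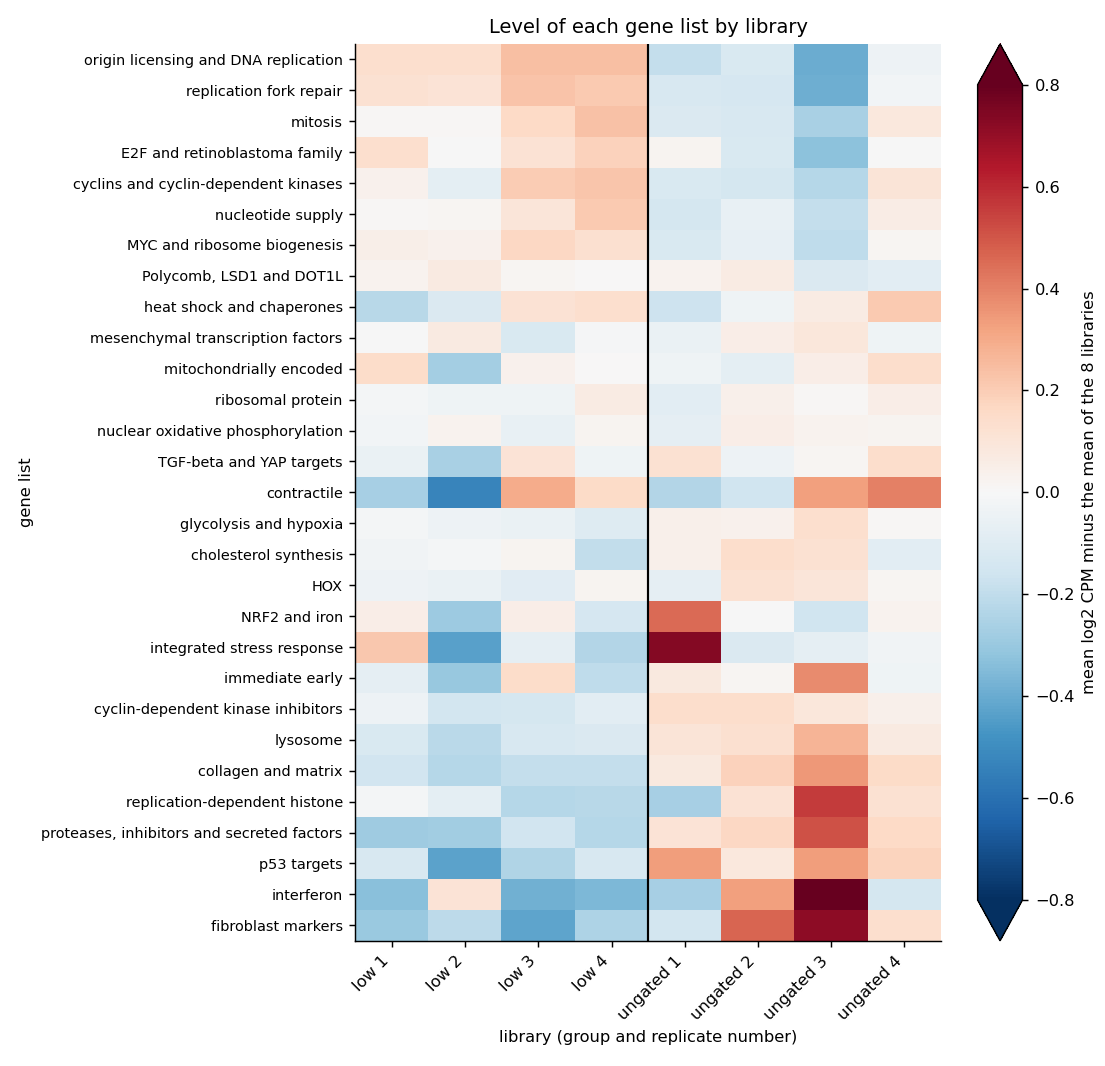
Level of each gene list (mean log2 CPM of tested members) in each of the 8 libraries, as the deviation from the mean of the 8, with low dye libraries on the left and ungated libraries on the right of the black line and arrowheads on the colour bar for values beyond its ends. Replication lists are higher in all 4 low dye libraries, and ungated replicate 3 stands out for interferon genes at 4.07 mean log2 CPM, against 2.76 to 3.35 in the other ungated libraries.

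Immediate early genes fell in 8 of 31 cases (25.8%, against 7.2% of all genes) and rose in 2 (6.45%, against 3.59%), JUN by 0.34 and FOSL1 by 0.25. The list median was -0.13, and -0.055 without ungated replicate 3. JUN and FOSL1 were not called without ungated replicate 3 (edgeR adjusted p = 0.0657 and 0.149). The 8 became 3 without low dye replicate 3 and 5 without low dye replicate 2 or ungated replicate 2. BTG2, an antiproliferative p53 target, had 1.63, 1.22, 2.18 and 2.02 CPM in low dye, against 4.29, 3.42, 4.98 and 4.09 CPM in ungated cells, without overlap (log2 difference -1.27 ± 0.29, edgeR adjusted p = 0.00843). The nuclear receptor gene NR4A3 differed by -1.42 ± 0.33 at low levels, with 0.0626, 0.254, 1.79 and 0.796 CPM in low dye, against 0.801, 1.18, 3.98 and 1.3 CPM in ungated cells. Low dye replicate 1 lay under the floor of 3 counts and low dye replicate 2 near it. NR4A2 was called with all libraries (-0.61 ± 0.15, edgeR adjusted p = 0.0117) and not without ungated replicate 3 (edgeR adjusted p = 0.0602). Among 30 heat shock and chaperone genes 4 fell (13.3%, against 7.2% of all genes) and 2 rose (6.67%, against 3.59%). The co-chaperone DNAJB1 had a difference of -0.26 ± 0.049, DNAJB4 of -0.51 ± 0.10, the small heat shock protein gene HSPB8 of -0.40 ± 0.12 and HSPA1A of -0.44 ± 0.10, the last uncertain because HSPA1B is nearly identical. HSP90AA1, the inducible HSP90, rose by 0.24 ± 0.069 and CCT5, a chaperonin subunit, by 0.23 ± 0.07. Both increases were lost without ungated replicate 3 (edgeR adjusted p = 0.0612 and 0.146), and no member was called higher without ungated replicate 2 or 4 or without low dye replicate 1 or 3.

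Metabolic lists differed in the share called. Of 33 glycolysis and hypoxia genes 6 fell (18.2%, against 7.2% of all genes). In that list 1 gene, PFKFB3, a regulator of glycolysis, rose by 0.27 (3.03%, against 3.59% of all genes). PFKFB3 was not called without ungated replicate 3 (edgeR adjusted p = 0.0825), and 2 of the list fell without low dye replicate 3. Those that fell included CA12, a carbonic anhydrase (-0.36 ± 0.071), P4HA1, which hydroxylates collagen (-0.44 ± 0.088), MXI1, a MYC antagonist (-0.58 ± 0.15), and VEGFA, the angiogenic factor (-0.58 ± 0.15), the last not called without ungated replicate 3 (edgeR adjusted p = 0.0698). Of 24 cholesterol synthesis genes 3 fell (12.5%, against 7.2% of all genes), HMGCS1 (-0.39 ± 0.075), MSMO1 (-0.31 ± 0.069) and TM7SF2 (-0.97 ± 0.27). TM7SF2 was not called without ungated replicate 3 (edgeR adjusted p = 0.0557), and 1 of the list fell without low dye replicate 3. None of 13 mitochondrially encoded, 50 nuclear oxidative phosphorylation or 78 ribosomal protein genes passed in edgeR or in DESeq2, with 1, 4 and 4 at an unadjusted edgeR p under 0.05, and their medians were -0.014, -0.022 and -0.015.

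Chromatin and reprogramming genes were examined because the series also tests inhibitors of LSD1 and DOT1L. KDM1A, which encodes the histone demethylase LSD1, had 176, 181, 168 and 167 CPM in low dye, against 159, 164, 148 and 151 CPM in ungated cells. The groups did not overlap, but the difference of 0.16 ± 0.066 did not pass (edgeR adjusted p = 0.129). DOT1L, the H3K79 methyltransferase gene, differed by 0.18 ± 0.09 (edgeR adjusted p = 0.205). In the list of 39 Polycomb, LSD1 and DOT1L genes 5 rose (12.8%, against 3.59% of all genes) and 1 fell (2.56%, against 7.2%). The number higher was 0 without low dye replicate 3, 2 without ungated replicate 2 or 3 and 3 without ungated replicate 4. DNMT1, the maintenance DNA methyltransferase, had 371, 353, 393 and 378 CPM in low dye, against 282, 318, 242 and 309 CPM in ungated cells, without overlap, and rose by 0.39 ± 0.11 (edgeR adjusted p = 0.0213). KDM2B, a demethylase that brings a Polycomb complex to CpG islands, rose by 0.25 ± 0.074. EZH2, the H3K27 methyltransferase of dividing cells, rose by 0.38 ± 0.12, with 71.4, 66.2, 71.5 and 74.9 CPM in low dye, against 58.6, 55.7, 46.8 and 59.2 CPM in ungated cells. EZH1, its paralog and the 1 member that fell, had 23, 23.6, 18.8 and 21.1 CPM in low dye, against 28.6, 26.4, 27.6 and 24 CPM in ungated cells, a difference of -0.30 ± 0.091. The calls of DNMT1, KDM2B, EZH2 and EZH1 were lost without ungated replicate 3 (edgeR adjusted p = 0.0557, 0.0755, 0.0809 and 0.117). The pluripotency and reprogramming factors did not pass: POU5F1 differed by 0.23 ± 0.27, SOX2 by 0.38 ± 0.26 and KLF4 by -0.12 ± 0.10, with POU5F1 and SOX2 at 1.58 to 5.13 CPM in low dye and 1.71 to 3.49 CPM in ungated cells. TERT counts cannot separate the endogenous gene from the introduced one. They ranged widely between replicate numbers, with 1632, 579, 928 and 400.2 CPM in low dye, against 1430.1, 788, 731 and 604 CPM in ungated cells, and the difference of -0.15 ± 0.18 did not pass (edgeR adjusted p = 0.647).

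Transcription factors of mesenchymal cells and histone genes were called at shares near those of all genes. Of 29 tested mesenchymal transcription factors 1 rose (3.45%, against 3.59% of all genes) and 2 fell (6.9%, against 7.2% of all genes). SNAI2, a repressor that drives mesenchymal features, had 95.9, 95.8, 93 and 84.9 CPM in low dye, against 112, 111, 187 and 109 CPM in ungated cells. The ranges were separate, with ungated replicate 3 far above the rest, and the difference was -0.46 ± 0.10 with all libraries and -0.31 without that one (edgeR adjusted p = 0.00831 and 0.0329). TCF21 fell and NFIB rose, with differences of -0.74 and 0.25, and neither was called without ungated replicate 3. Of 21 tested replication-dependent histone genes 2 fell (9.52%, against 7.2% of all genes), H2AC6 (-0.93 ± 0.19) and H2BC21 (-1.35 ± 0.30), and the others did not pass. Ungated replicate 3 was highest for both, at 17.1 and 11.6 CPM, against 6.04 to 8.29 and 2.40 to 5.27 CPM in the other ungated libraries. Without it the differences were -0.78 and -1.20, and both remained called (edgeR adjusted p = 0.0229 and 0.0329). Replication-dependent histone messages mostly lack a poly(A) tail, and these libraries were selected for poly(A), so the histone counts hold only a part of those messages.

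Markers of other cell types were mostly low or overlapped between the groups. Keratinocyte and epithelial markers summed to 129 to 311 CPM in low dye and 127 to 307 CPM in ungated cells, nearly all from KRT8 and KRT18, with KRT5 at 0. Endothelial markers summed to 65.6 to 97.6 CPM in low dye and 70.0 to 104 CPM in ungated cells, most of it TEK. Leukocyte markers summed to 0.153 to 0.735 CPM in low dye and 0.374 to 1.01 CPM in ungated cells, with CD3E and LYZ at 0. Erythroid markers summed to at most 0.192 CPM in a low dye library and to 0 in ungated cells. Melanocyte and Schwann markers summed to 2.14 to 3.01 CPM in low dye and 2.78 to 7.57 CPM in ungated cells, with S100B and SOX10 at 0, and MITF was the 1 called member of 3 tested. Smooth muscle markers summed to 13.02 to 61.0 CPM in low dye and 22.4 to 74.5 CPM in ungated cells, where ACTA2 fell. Of the neuronal markers TUBB3 rose and SYT1 fell, with differences of 0.67 ± 0.20 and -0.29 ± 0.077, neither called without ungated replicate 3 (edgeR adjusted p = 0.124 and 0.0895), and SNAP25 and STMN2 were at 0. Neuronal markers summed to 24.6 to 38.9 CPM in low dye and 23.9 to 48.2 CPM in ungated cells, and pluripotency markers to 7.94 to 11.8 CPM in low dye and 7.30 to 11.4 CPM in ungated cells, with DPPA4 at 0. The part of these markers in the differences between the groups was not tested.

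Mean levels in ungated cells lay inside the range of the dye gate means for the 10 genes plotted by gate and for most genes named by rule, but outside it for 23 of those 147. COL3A1 averaged 18.3, 31.3, 49.5 and 47.2 CPM in the low, midlow, midhigh and high gates, and 51.1 CPM in ungated cells. CPA4, ISG15 and SNAI2 were likewise higher in ungated cells than in any gate, at 80.1, 17.8 and 129.8 CPM, and ungated replicate 3 was the highest ungated library for each of these 4 genes. Set against the mean of the other 3 gates, low dye cells differed at 4096 of the 14592 genes (28.1%), 1858 higher (12.7%) and 2238 lower (15.3%). That comparison uses the same low dye libraries, so its values are given beside those above and not as independent support. MCM2 averaged 162, 133, 90.8 and 75.2 CPM in the low, midlow, midhigh and high gates, and 108 CPM in ungated cells. CDKN1A averaged 187, 271, 519 and 864 CPM across the same gates, and 406 CPM in ungated cells. For both genes the ungated mean lay between those of the midlow and midhigh gates. The difference against the other gates was 0.78 ± 0.12 for MCM2 and -1.38 ± 0.13 for CDKN1A, beside 0.62 ± 0.15 and -1.14 ± 0.15 against ungated cells. For IGFBP5 the values were -2.20 ± 0.16 against the other gates and -2.29 ± 0.18 against ungated cells. MKI67, not called against ungated cells, differed from the other gates by 0.53 ± 0.12 (edgeR adjusted p = 0.00227). MKI67 averaged 675, 618, 479 and 369.7 CPM in the low, midlow, midhigh and high gates, and 548 CPM in ungated cells.

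**Figure D5:**
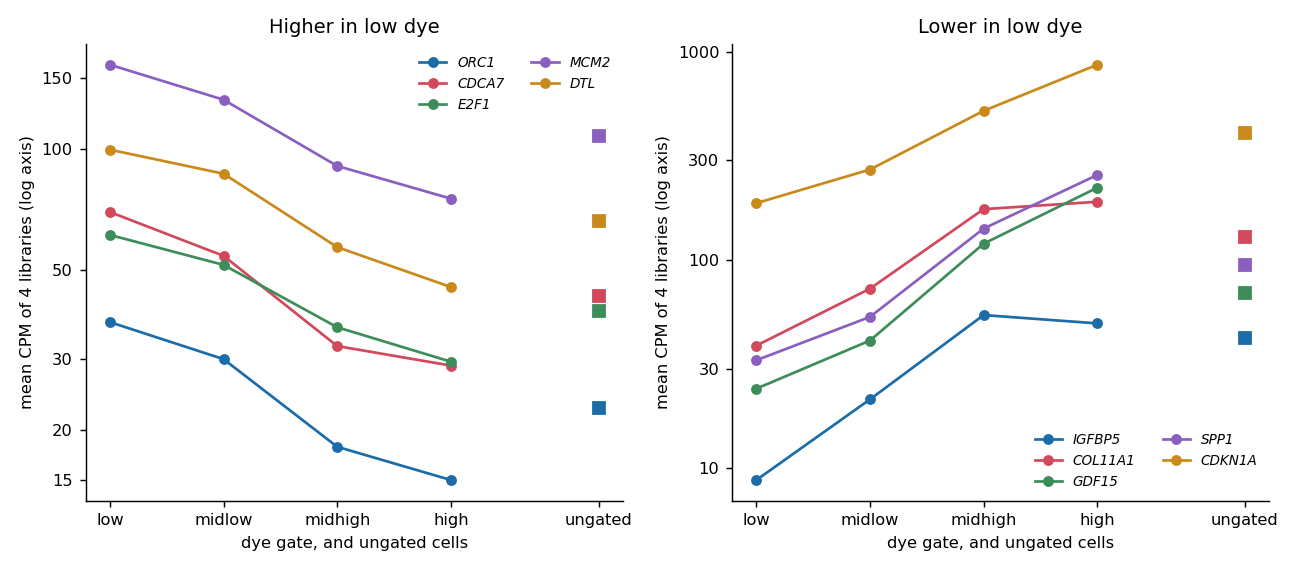
Mean CPM of 4 libraries per group on a log axis, for 5 genes that rose (left panel) and 5 that fell (right panel) in low dye cells, with the gates joined from low to high and ungated cells as squares at the right. Ungated means lie inside the range of the gates, as for MCM2 at 108 CPM between 162 CPM in the low gate and 75.2 CPM in the high gate.

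The 11 genes that passed without the replicate block were all lower in low dye cells and were all called with the block as well. They were chosen for mention after their values were seen, as were the list members outside the rule for named genes (SLC7A1, NID1, GUSB, IL11, CXCL12, TEAD4, AXL, JUN, FOSL1, HSPB8, CCT5, PFKFB3, EZH2, EZH1, OAS3, DLGAP5, TK1, DTYMK and ATIC). CCNG2, an atypical cyclin linked to cell cycle arrest, had 17.5, 11.1, 12.2 and 12.9 CPM in low dye, against 26.1, 22.7, 24.9 and 19.3 CPM in ungated cells. MXD4, which opposes MYC at shared partner MAX, had 24.2, 30.9, 22 and 24.8 CPM in low dye, against 39.4, 46.5, 68.3 and 42.8 CPM in ungated cells. CCNG2 differed by -0.80 ± 0.10 and MXD4 by -0.92 ± 0.12 with the block, and neither gene's groups overlapped. The others were SCN2A (-1.14), TMOD2 (-1.20), CLIP3 (-0.93), TNFRSF21 (-0.68), BCHE (-1.28), GSTM3 (-1.12), ARMCX2 (-0.58), ACSF2 (-0.94) and MYO18A (-0.55), all with the block.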

How the data were processed

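Reads were aligned and counted by the authors with STAR and HTSeq against hg38/GRCh38, per the submitters' processing notes; tool versions, the annotation release and the strand setting are not given in the sources used here. The deposited files hold raw counts per gene for 58302 gene identifiers, of which 57532 were given a symbol and 58039 are in GENCODE 29. The library kit selects poly(A) RNA and does not record strand, per the labels' protocols, so overlapping and antisense genes cannot be told apart.

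HTSeq summary lines were left out of library sizes: reads with no feature took 5.31% to 7.28% and ambiguous reads 7.27% to 7.46%. Counts of the 20 sorted and ungated libraries were filtered with filterByExpr (minimum count 10, minimum total 15), scaled by TMM and tested with edgeR 4.0.16 in R 4.3.3 (quasi-likelihood F test, group plus replicate number as a block, Benjamini-Hochberg adjustment over all genes tested, threshold 0.05). The SE of each log2 difference was derived from its F statistic. Levels in CPM are TMM-scaled and not corrected for gene length. The fit was repeated without ungated replicate 3. DESeq2 1.42.0 was an alternative. The fit was tested on simulated data.

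All same-numbered pairs of libraries had residual correlations over 0.1 (40 of 40, against 15 of 120 pairs with different numbers), which is the ground for the block; the labels call the replicates biological and do not say what a number shares. No 2 libraries of a group agreed within sampling noise.

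The comparison, the gene lists and the rule for named genes were chosen with earlier results of these data known. The rule took the 12 largest differences in each direction among genes past the threshold with and without ungated replicate 3, at a mean of at least 10 CPM and with the same direction in pairs 1, 2 and 4; the 4 members of each of 37 lists with the smallest p; and 14 set genes. Results for some genes are not reported here. Promoters were read from the RefSeq table, build GRCh38.p14. Alternatives were no block, the 8 libraries alone, other scalings and filters, DESeq2 and leaving out each library or replicate number. Counting error is the only error that the depth floors cover.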

Additional observations from a re-analysis of the deposited data

Results flagged for a closer look

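Single libraries that stood far from the other 3 of their group were found in 24 of 344 groups of 4 values tested, where chance alone gives about 17.2 (1 in 20). Low dye libraries gave 10 of them. CPA4 was high in low dye replicate 4 (45.8 CPM), AKR1C1 and TGFBI were high in low dye replicate 1 (4.822 and 1480 CPM) and HSP90AA1 was low there (2680 CPM). HOXA10 was high in low dye replicate 2 (20.6 CPM) and TOP2A in low dye replicate 4 (529.6 CPM). Low dye replicate 2 had the lowest lysosome list level (4.936 mean log2 CPM), the highest interferon list level (3.132 mean log2 CPM) and the most gene counts (18914812), and low dye replicate 1 the lowest melanocyte and Schwann marker level (-1.703 mean log2 CPM).

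Ungated replicate 3 gave 7: it was low for PAQR4 (5.711 CPM) and high for NR4A3 (3.984 CPM), NR4A2 (36.52 CPM), SAMD9L (63.88 CPM), SNAI2 (187.2 CPM), MYC (88.19 CPM) and the list of proteases, inhibitors and secreted factors (6.159 mean log2 CPM). Ungated replicate 1 gave 4, all high: AKR1C1 (18.72 CPM), SESN2 (46.47 CPM), TGFBI (2094 CPM) and the integrated stress response list (6.074 mean log2 CPM). Ungated replicate 4 was high for CDKN3 (42.12 CPM), MKI67 (673 CPM) and TOP2A (578.4 CPM).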

How the results depend on the processing

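The count of 1575 genes called rested on the replicate block. Without it 11 genes were called (0 higher, 11 lower; 1898 at an unadjusted p under 0.05), and 0 (957 unadjusted) with no block and ungated replicate 3 left out. In the 8 libraries alone the count was 932 (353 higher, 579 lower) with the replicate block and 0 (1914 unadjusted) with no block. Low dye against the mean of the other gates gave 1065 without the block. Other scalings, filters and DESeq2 gave 1568 to 1944, and DESeq2 gave 1753. Leaving out 1 library gave 422 to 1551 genes (58 to 563 higher, 364 to 1028 lower), lowest without low dye replicate 3, and with 899 without ungated replicate 3. Leaving out a replicate number gave 499 to 1019 (102 to 284 higher, 397 to 735 lower), lowest without number 3. Of 102 called genes taken by the rule for named genes, all 102 missed the threshold without the block and 49 without low dye replicate 3, and all 102 passed under other scalings and filters. Of the named genes, NR4A2 changed sign, to 0.16 with no block and ungated replicate 3 left out. The causes were not tested. Depth limits genes near the floor of 3 counts, and 4 libraries a group limit the rest.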

Other observations

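Protein-coding genes held most of the calls. Of 12120 tested, 488 (4.03%) rose and 1025 (8.46%) fell in low dye cells, whereas 27 (1.74%) rose and 20 (1.29%) fell among the 1554 genes of the long non-coding and unclassified class. Genes that rose had a median level of 51.4 CPM over the 8 libraries, those that fell 25.3 CPM and those not called 18.7 CPM. The median size of the difference, without regard to sign, was 0.30 on the log2 scale for genes that rose and 0.43 for genes that fell.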
